A study of Mus musculus with 6 samples.

Results

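ATP-binding cassette (ABC) proteins carry ATP-binding domains that work in pairs and, in most members, spend ATP to move lipids, drugs, peptides, metals or other compounds across a membrane. The genes of this family were compared between MR 4-25 cells and S49 Neo cells, both known as lines of a mouse T lymphoma that grows in suspension. Members were the genes whose name on the array is Abca to Abcg followed by a number. They came to 49 genes on 93 probes, of 41174 probes in all, and 45 of the genes, on 70 probes, passed the filter on dim signals. These 45 stood among 21353 genes tested over the whole array.

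The labels call MR 4-25 mannitol recovered, mannitol being a sugar alcohol used to raise osmolarity, and S49 Neo the parental line. Both were grown untreated in the same serum-containing medium with glutamine and antibiotics, and total RNA of each of 3 samples per line was hybridised to a separate Agilent array with the single dye Cy3. The comparison therefore sets 1 recovered line against 1 parental line. The labels give no further genotype, state no mannitol exposure of the cells at harvest and do not tell whether the 3 samples of a line came from separate cultures. The p-values therefore rest on the spread among these arrays, and that spread may be technical.

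The 7 subfamilies do different work. Members of B, C and G include the multidrug pumps, which export drugs and glutathione conjugates and were first studied in cultured tumour cells that survive chemotherapy. Most of subfamily A and the rest of G move sterols and phospholipids, D serves peroxisomes, several B members sit in mitochondria or lysosomes, and E and F carry no membrane span and act on ribosomes.

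Each value below is a log2 level, that is, the log2 of the background-corrected signal of a probe minus the log2 of the 75th percentile of its array, so a level of 0 lies at that percentile. A log2 difference is the mean level in MR 4-25 minus the mean level in Neo, from limma, and a gene passed the test when its p, adjusted over all 21353 genes, was under 0.05. With several probes for a gene, the one with the highest mean signal stands for it. Levels of single genes are not set against each other, since probes differ in how strongly they bind. The summed marker signals and the split of members at the 75th percentile below do span probes of different genes, and carry that limit.

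The 75th percentile lay at 872, 912 and 521 intensity units on the MR 4-25 arrays and at 988, 844 and 917 on the Neo arrays. MR 4-25 replicate 3 was thus the dimmest array, with 53 of the 93 ABC probes well above background, against 73 and 65 on MR 4-25 replicates 1 and 2, and 66, 71 and 66 on the Neo arrays. Replicates 1 and 2 of both lines lay on slide 1 and replicate 3 of both on slide 2. MR 4-25 replicate 3 also correlated more closely with Neo replicate 3, at 0.934 across genes, than with MR 4-25 replicates 1 and 2, at 0.891 and 0.904. All 11 T cell markers on the array were well above background on every array, and their summed signal, relative to the 75th percentile, was 245 to 266 in MR 4-25 and 257 to 294 in Neo. That sum is weighted to its brightest markers, such as Thy1, at mean levels of 6.96 and 7.06. The summed signals of B cell, myeloid, fibroblast, epithelial and erythroid markers lay between 0.686 and 2.17 in MR 4-25 and between 0.448 and 1.66 in Neo, and Epcam was well above background on no array. Many of these markers were detected too. On all MR 4-25 arrays 3 of 6 B cell and 5 of 6 myeloid markers were well above background. On all Neo arrays 5 and 6 were. For fibroblast, epithelial and erythroid markers it was 3 of 6, 3 of 6 and 2 of 4 in MR 4-25, and 4, 2 and 2 in Neo. Of all these markers 1 was called, where 1.23% of all genes tested were called. It was the B cell adaptor gene Blnk, lower in MR 4-25 by a log2 difference of -1.90 (adjusted p 0.0408 by limma). That call was lost in the fit blocked on replicate number (adjusted p 0.114) and with any 1 array left out (adjusted p 0.0516 to 0.217). It was also lost with median scaling (adjusted p 0.0561), without the filter on dim signals (0.0676) and on slide 1 alone (0.108). Under normexp the call was lost too, with a difference of -0.90 (adjusted p 0.519). The part of Blnk in the results below was not tested.

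Abcb9 was the single member of 45 that passed the test. It encodes TAPL, a transporter that carries peptides from the cytosol into lysosomes. Abcb9 had log2 levels of 0.26, -0.06 and 0.56 in MR 4-25 replicates 1 to 3, against 3.94, 4.10 and 3.49 in Neo replicates 1 to 3. Every MR 4-25 array lay far below every Neo array, and the probe was well above background on all 6 arrays. In RNA of whole cultures, fewer cells with a transcript and less of it per cell cannot be told apart. The means were 0.25 ± 0.31 in MR 4-25 and 3.84 ± 0.31 in Neo (SD, n = 3 each).

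Abcb9 fell by 3.59 on the log2 scale (SE 0.26, 95% confidence interval of the difference -4.24 to -2.95), a signal 12.1-fold lower in MR 4-25, with an adjusted p of 0.0114 by limma. Before scaling, the processed signals were 1047, 872 and 766 intensity units in MR 4-25 and 15163, 14449 and 10325 in Neo. The log2 difference was -3.92 within slide 1 and -2.94 within slide 2. With slide as a block Abcb9 stayed called. With the replicate number as a block the adjusted p was 0.108, so the call was lost in that fit while the size of the difference was the same. It was also lost when MR 4-25 replicate 1, MR 4-25 replicate 2, Neo replicate 1 or Neo replicate 2 was left out, at adjusted p of 0.0780, 0.0675, 0.0866 and 0.0941. Abcb9 is measured by 1 probe, at chr5:123307711-123307770 on the minus strand of build mm7, so no second probe repeats the difference.

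A pair of peptide transporter genes of subfamily B keep other names and are not among the 45. Tap1 and Tap2 encode the subunits of the transporter that brings cytosolic peptides into the endoplasmic reticulum for loading on MHC class I. Tap1 had log2 levels of 1.38, 1.22 and 1.26 in MR 4-25 and 0.26, 0.12 and 0.08 in Neo. Tap1 rose by 1.13 on the log2 scale (SE 0.14), 2.19-fold, with an adjusted p of 0.0391 by limma. Its difference was 1.11 within slide 1 and 1.18 within slide 2. The adjusted p was 0.160 with the replicate number as a block, which ends that call. Leaving out any 1 of the 6 arrays also ended it, at adjusted p of 0.0616 to 0.229, with differences of 1.08 to 1.19. The probe lies at chr17:32273751-32273810 of build mm7.

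Tap2 had log2 levels of 1.23, 0.94 and 1.06 in MR 4-25 and 1.65, 1.55 and 1.52 in Neo, a difference of -0.50 ± 0.15 (SE) that missed the test at an adjusted p of 0.256. The subunit genes thus gave differences of opposite sign, and the arrays of the lines did not overlap for either. Cftr, the chloride channel gene of subfamily C that also keeps another name, did not pass the filter on dim signals.

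The promoter windows of Abcb9 and Tap1 are shown because these were the ABC genes that passed the test, in opposite directions. Each window runs from 250 bases before to 50 bases after the start of the gene, as RefSeq gives it on build GRCm38.p6, at chr5:124095749-124096048 on the minus strand for Abcb9 and at chr17:34187306-34187605 on the plus strand for Tap1. Capitals mark the GC box, GGGCGG or its reverse complement CCGCCC, the element bound by Sp1 family factors.
Abcb9 promoter: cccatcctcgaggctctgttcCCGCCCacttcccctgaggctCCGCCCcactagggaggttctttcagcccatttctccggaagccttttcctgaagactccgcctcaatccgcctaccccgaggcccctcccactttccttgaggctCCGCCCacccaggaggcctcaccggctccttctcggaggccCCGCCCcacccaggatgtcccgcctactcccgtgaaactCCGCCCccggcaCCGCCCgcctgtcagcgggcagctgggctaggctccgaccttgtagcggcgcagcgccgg
Tap1 promoter: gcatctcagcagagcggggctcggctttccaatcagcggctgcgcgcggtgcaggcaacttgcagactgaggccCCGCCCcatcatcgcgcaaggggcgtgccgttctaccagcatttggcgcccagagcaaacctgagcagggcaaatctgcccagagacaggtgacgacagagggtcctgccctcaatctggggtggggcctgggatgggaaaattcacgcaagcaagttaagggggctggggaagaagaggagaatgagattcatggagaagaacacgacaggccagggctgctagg

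The GC box was found 6 times in the Abcb9 window and 1 time in the Tap1 window. Of 32851 mouse promoter windows of this length, 35.7% held at least 1 GC box on either strand and 1.35% held at least 6. GC content was 68.7% for Abcb9 and 61.0% for Tap1, against a median of 52.7% over all windows. A CCAAT box (CCAAT, in 37.4% of windows) occurred 0 times in the Abcb9 window and 1 time in the Tap1 window. Neither window held TATAAA, the E-box CACGTG or the STAT element TTCNNNGAA, which were in 13.6%, 7.15% and 8.30% of windows. All motifs were searched on both strands, and none of the matches found overlap each other. These matches describe the letters of the windows only.

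Over the family, 0 members were called higher and 1 lower by limma, or 2.22% of 45, against 1.23% of the 21353 genes tested (0.674% higher and 0.557% lower). At an unadjusted p under 0.05 there were 3 members, Abcb9, Abcc1 and Abcg1, or 6.67%, against 13.2% of all genes. The 3 arrays of MR 4-25 and the 3 of Neo did not overlap for 13 members, or 28.9%, against 24.3% of all genes, with 7 of these members higher in MR 4-25 and 6 lower. Differences were positive in 21 members and negative in 24, and their median was -0.06, against 0.01 over all genes. Under normexp background correction 33 were positive and 12 negative, with a median of 0.46 against 0.34 over all genes. The share called rests on 1 member. At the unadjusted level the family's share lay below that of the array, and its share without overlap lay near it.

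In size, 31 members differed by less than 0.5 on the log2 scale and 6 by more than 1. Of those 6, 5 did not pass the test, and all 5 were well above background on 3 to 5 arrays only. The precision followed the signal. For the 17 members with a mean level above the 75th percentile the standard error of the difference was 0.158 to 0.297, with a median of 0.179. The other 28 had standard errors of 0.147 to 1.61, with a median of 0.594. The 95% confidence interval reached a median of 0.452 to either side of the difference in the first set and 1.50 in the second, so a difference as large as the 1.13 of Tap1 is smaller than the median reach in the second set.

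**Figure D1:**
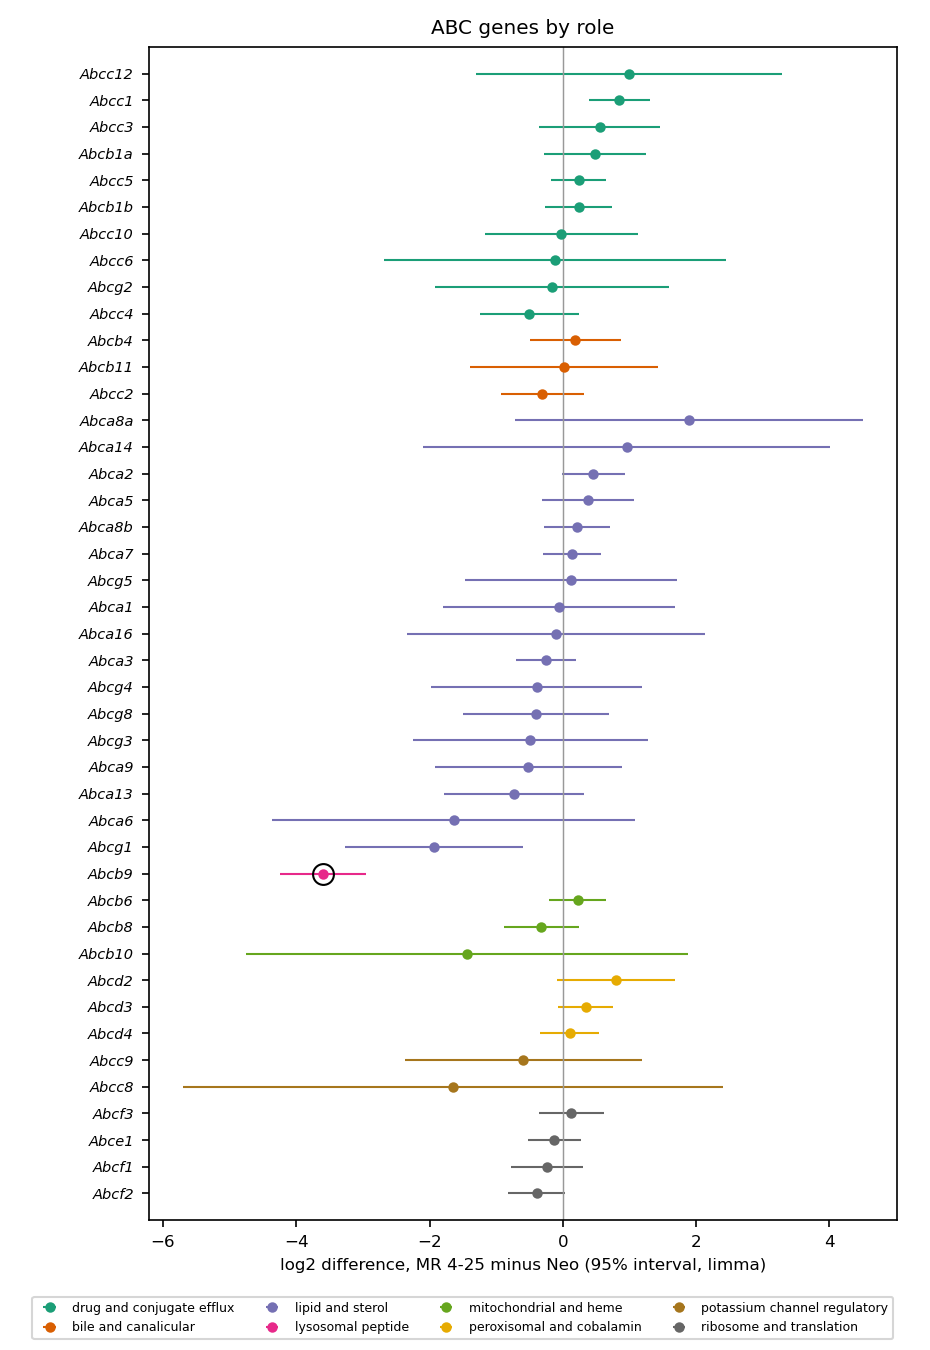
The log2 difference, MR 4-25 minus Neo, of 43 of the 45 ABC genes that passed the filter, with its 95% confidence interval from limma, grouped and coloured by role. A black ring marks Abcb9, at -3.59, the single gene past the test, and the intervals of Abcb9, Abcc1 and Abcg1 alone lie wholly to 1 side of 0 among the genes drawn.

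Among genes for drug and conjugate efflux, 10 members passed the filter and none passed the test, with 1 at an unadjusted p under 0.05. Their median difference was 0.24, and 6 of 10 were positive. Under normexp background correction 9 of 10 were positive, with a median of 0.70 against 0.34 for all genes, and with the mean over the probes of a gene 4 of 10 were positive, with a median of -0.05. The member nearest to the threshold was Abcc1, which encodes the multidrug resistance protein MRP1, an exporter of glutathione conjugates and leukotrienes. Abcc1 had log2 levels of 0.81, 0.54 and 1.03 in MR 4-25 and -0.03, -0.08 and -0.06 in Neo. The lowest MR 4-25 array lay above the highest Neo array. The difference was 0.85 ± 0.18 (SE, 95% confidence interval 0.40 to 1.30), with an unadjusted p of 0.00431 and an adjusted p of 0.130. Abcc1 passed the test with an intensity trend and robust fit, at an adjusted p of 0.0433, and with array quality weights, at 0.0291, and in none of the other 17 alternatives.

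Abcc1 has 3 probes that passed the filter, all on the plus strand of chromosome 16, the standing one at chr16:14020966-14021025 of build mm7. The other probes are shown because they overlap, and so are not independent measurements; capitals mark the 19 bases they share. Their positions are chr16:14019972-14020031 and chr16:14020013-14020072.
Abcc1 probe A_52_P491508: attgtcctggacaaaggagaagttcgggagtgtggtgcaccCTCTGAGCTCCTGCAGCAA
Abcc1 probe A_52_P491507: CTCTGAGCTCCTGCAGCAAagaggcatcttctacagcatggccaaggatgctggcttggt
The first of these had log2 levels of 0.80, 0.62 and 0.72 in MR 4-25 and 0.02, -0.11 and 0.14 in Neo. Its neighbour had 0.66, 0.52 and 0.85 in MR 4-25 and -0.13, -0.07 and -0.06 in Neo. All 3 Abcc1 probes were higher on every MR 4-25 array than on every Neo array, and the overlapping probes differed by 0.70 and 0.77 at adjusted p of 0.129 and 0.114 over all 30975 probes.

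The P-glycoprotein genes Abcb1a and Abcb1b, which encode the mouse multidrug pumps, did not pass the test. Abcb1a had log2 levels of -2.05, -2.14 and -1.85 in MR 4-25 and -2.73, -2.87 and -1.89 in Neo, a difference of 0.48 ± 0.30 (SE). The MR 4-25 arrays were higher on slide 1, by 0.71, and close to the Neo array on slide 2, by 0.04. Abcb1b is read by 3 probes. Its standing probe had levels of 2.38, 2.05 and 2.66 in MR 4-25 and 2.19, 2.09 and 2.10 in Neo, which overlap, with a difference of 0.24 ± 0.20 (SE, 95% confidence interval -0.27 to 0.75).
The second Abcb1b probe had 1.06, 0.71 and 1.39 in MR 4-25 and 1.08, 0.64 and 0.85 in Neo. The probe farthest upstream had -2.35, -3.24 and -2.62 in MR 4-25 and -2.15, -3.09 and -2.18 in Neo. All 3 Abcb1b probes overlapped between the lines, and their differences were 0.24, 0.20 and -0.26.

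Abcc4, which exports cyclic nucleotides and prostaglandins, is read by a pair of probes. At its standing probe Abcc4 had log2 levels of 2.20, 2.17 and 1.37 in MR 4-25 and 2.67, 2.17 and 2.40 in Neo. Its second probe had -1.74, -1.81 and -1.87 in MR 4-25 and -1.33, -1.65 and -1.61 in Neo. The differences were -0.50 ± 0.30 and -0.27 ± 0.16 (SE), both negative and neither past the test; the second probe's lines did not overlap.
Abcc5, another exporter of cyclic nucleotides, had log2 levels of 1.15, 0.98 and 0.94 in MR 4-25 and 0.89, 0.86 and 0.59 in Neo at its standing probe, without overlap. A second Abcc5 probe had -1.62, -1.88 and -1.69 in MR 4-25 and -1.74, -1.91 and -1.47 in Neo. The Abcc5 probe farthest upstream had -2.75, -1.67 and -2.98 in MR 4-25 and -2.11, -2.11 and -1.86 in Neo. Those Abcc5 differences were 0.24, -0.02 and -0.44, so the sign depended on the probe, and none passed the test.

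Abcc3 encodes an exporter of organic anions. Its standing probe had log2 levels of -3.68, -3.71 and -2.55 in MR 4-25 and -3.75, -3.81 and -4.04 in Neo. The second Abcc3 probe had -6.55, -7.54 and -0.81 in MR 4-25 and -3.87, -4.81 and -2.26 in Neo. At both probes MR 4-25 replicate 3 was the highest array, and the differences were 0.55 ± 0.36 and -1.32 ± 1.92 (SE), of opposite sign and not past the test.
Abcg2, the breast cancer resistance protein gene, had log2 levels of -3.0, -2.87 and -4.86 in MR 4-25 and -2.83, -3.11 and -4.33 in Neo. In both lines replicate 3, the slide 2 array, was the lowest at this probe, and its difference was -0.15 ± 0.70 (SE). The second Abcg2 probe had -3.64, -4.14 and -3.78 in MR 4-25 and -3.35, -3.70 and -3.20 in Neo, was well above background on all 6 arrays, and differed by -0.43 ± 0.22 (SE, adjusted p 0.476). There replicate 2 was the lowest array of each line, and the lines overlapped.

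The remaining efflux genes of subfamily C were dim. Abcc6, known for its loss in pseudoxanthoma elasticum, had log2 levels of -4.18, -5.29 and -6.97 in MR 4-25 and -4.47, -4.59 and -7.05 in Neo. Abcc10 had -4.74, -5.37 and -6.30 in MR 4-25 and -5.14, -5.32 and -5.88 in Neo. Abcc12 had -5.06, -5.64 and -5.44 in MR 4-25 and -5.31, -5.38 and -8.42 in Neo. For Abcc6 and Abcc10 the slide 2 array was lowest in both lines, and for Abcc12 the single array that stood apart was Neo replicate 3. The differences were -0.11 ± 1.02, -0.02 ± 0.46 and 0.99 ± 0.91 (SE).

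Of the genes for bile and canalicular transport, 3 passed the filter and none the test, at either the adjusted or the unadjusted level of 0.05. Abcb4 encodes a phosphatidylcholine floppase of the hepatocyte canaliculus. Abcb4 had log2 levels of 2.87, 2.15 and 3.02 in MR 4-25 and 2.52, 2.37 and 2.60 in Neo, which overlap, with a difference of 0.19 ± 0.27 (SE). Abcb11, the bile salt export pump gene, had levels of -2.35, -2.32 and -3.76 in MR 4-25 and -2.44, -2.40 and -3.65 in Neo. The slide 2 arrays were low in both lines alike, and the difference was 0.02 ± 0.56 (SE). Abcc2, the canalicular exporter of conjugates, had -2.22, -1.46 and -1.92 in MR 4-25 and -1.70, -1.36 and -1.61 in Neo, a difference of -0.31 ± 0.25 (SE).

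**Figure D2:**
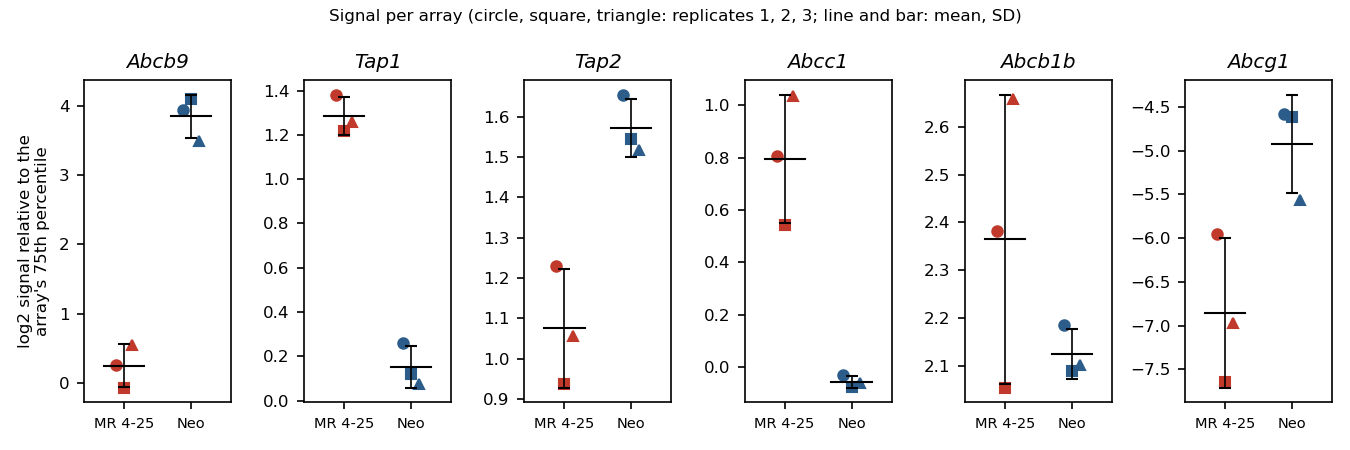
Log2 levels of Abcb9, Tap1, Tap2, Abcc1, Abcb1b and Abcg1 on each of the 6 arrays, with MR 4-25 left of Neo, symbols for replicates 1 to 3, and the mean and SD of each line as a line and an error bar; each panel has its own axis. Abcb9 lies between -0.06 and 0.56 in MR 4-25 and between 3.49 and 4.10 in Neo, while the 3 Abcc1 arrays of MR 4-25 lie between 0.54 and 1.03 and those of Neo between -0.08 and -0.03.

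The lipid and sterol transporters were the largest role group, with 17 members past the filter. None passed the test, 1 had an unadjusted p under 0.05, and the median difference was -0.10, with 7 positive and 10 negative. Under normexp background correction 15 were positive and 2 negative, with a median of 0.61, where all genes had a median of 0.34; on slide 1 alone 10 were positive and 7 negative. Abca7, which moves phospholipids and is known for its part in phagocytosis, had log2 levels of 4.57, 4.26 and 4.67 in MR 4-25 and 4.43, 4.34 and 4.31 in Neo. The lines overlapped, and the difference was 0.14 ± 0.17 (SE, 95% confidence interval -0.29 to 0.57).

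Abca2, a lipid transporter of late endosomes and lysosomes, had levels of 0.56, 0.38 and 0.81 in MR 4-25 and 0.21, 0.22 and -0.06 in Neo. Its lines did not overlap, the difference was 0.46 ± 0.19 (SE) with an adjusted p of 0.386, and its second probe differed by 0.43. Abca3, known for loading surfactant lipids into lamellar bodies of the lung, differed by -0.26 ± 0.18 (SE), and its other probes by -0.01 and 0.37.
Abcg1, which passes cholesterol to high-density lipoprotein, had log2 levels of -5.95, -7.65 and -6.97 in MR 4-25 and -4.58, -4.62 and -5.57 in Neo. All Neo arrays lay above all MR 4-25 arrays, and the probe was well above background on 1 of 3 MR 4-25 arrays and 3 of 3 Neo arrays. The difference of -1.93 ± 0.53 (SE) missed the test at an adjusted p of 0.212, and under normexp background correction it had the opposite sign, at 0.55. It passed with array quality weights, at an adjusted p of 0.0252.

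Abca1, the cholesterol efflux gene that works beside Abcg1, had levels of -5.05, -4.74 and -6.97 in MR 4-25 and -5.03, -5.33 and -6.22 in Neo, a difference of -0.06 ± 0.69 (SE). Abcg4, a close relative of Abcg1, had -1.88, -2.12 and -3.77 in MR 4-25 and -1.95, -1.68 and -2.96 in Neo, with the slide 2 array lowest in each line and a difference of -0.39 ± 0.63 (SE). Abcg5 and Abcg8, whose products form the sterol exporter of intestine and liver, differed by 0.12 ± 0.63 and -0.41 ± 0.43 (SE).
Abca8a had the largest difference of subfamily A, with levels of -2.04, -3.15 and -2.50 in MR 4-25 and -6.70, -2.99 and -3.67 in Neo. Neo replicate 1 was far below the other arrays, the lines overlapped, and the difference of 1.90 ± 1.03 (SE) had an adjusted p of 0.538. Without Neo replicate 1 the Abca8a difference was 0.77, and with normexp and quantile normalization it was 0.71. The other lipid and sterol members past the filter (Abca5, Abca6, Abca8b, Abca9, Abca13, Abca14, Abca16 and Abcg3) differed by -1.64 to 0.96, with adjusted p of 0.558 to 0.974.

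Of the 4 members for mitochondria and heme, none passed the test, with 0 at an unadjusted p under 0.05. Abcb6, a porphyrin transporter gene, had levels of 1.80, 1.94 and 1.95 in MR 4-25 and 1.51, 1.89 and 1.62 in Neo, a difference of 0.22 ± 0.17 (SE). Abcb8, whose product sits in the inner mitochondrial membrane, had levels of 1.07, 1.62 and 1.02 in MR 4-25 and 1.69, 1.59 and 1.41 in Neo, a difference of -0.32 ± 0.22 (SE). Both overlapped between the lines. Abcb10, which supports heme synthesis in erythroid cells, had levels of -2.37, -2.53 and -6.97 in MR 4-25 and -2.40, -2.45 and -2.70 in Neo at its standing probe. The second Abcb10 probe had -5.06, -5.54 and -5.29 in MR 4-25 and -5.00, -5.43 and -5.33 in Neo. The low value of MR 4-25 replicate 3 appeared at the first probe and not the second, with differences of -1.44 ± 1.31 and -0.04 ± 0.21 (SE).

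The 4 subfamily D members, 3 of them peroxisomal importers of fatty acids and Abcd4 a lysosomal protein needed for cobalamin, all had positive differences, with a median of 0.39. None passed the test and none had an unadjusted p under 0.05. The 4 differences remained positive under quantile normalization, median scaling, normexp and normexp with quantile, where their median was 0.23 to 0.40; over all genes the median was 0.34 under normexp, so the D median of 0.27 lay below it in that setting. Abcd3, which encodes a major protein of the peroxisomal membrane, had levels of 2.16, 2.50 and 2.25 in MR 4-25 and 1.97, 2.03 and 1.89 in Neo. Abcd3 did not overlap between the lines and differed by 0.34 ± 0.16 (SE, adjusted p 0.467); of its other probes one differed by 0.32 and one by -0.01.
Abcd2, the gene with the largest difference of the group, had levels of -5.13, -5.31 and -4.97 in MR 4-25 and -6.66, -5.47 and -5.69 in Neo, and was well above background on 2 of 3 arrays in each line. It differed by 0.80 ± 0.35 (SE, adjusted p 0.430). Abcd4 differed by 0.10 ± 0.17 (SE).

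The sulfonylurea receptor genes Abcc8 and Abcc9, which encode regulatory subunits of ATP-sensitive potassium channels, did not pass the test. Abcc8 had levels of -2.82, -7.85 and -2.13 in MR 4-25 and -3.40, -1.95 and -2.51 in Neo. MR 4-25 replicate 2 was the low array, and without it the difference changed from -1.65 ± 1.61 (SE) to 0.14. Abcc9 had -4.60, -4.66 and -6.97 in MR 4-25 and -4.69, -4.59 and -5.18 in Neo, a difference of -0.59 ± 0.71 (SE).

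The 4 members that act on ribosomes were measured with standard errors of 0.158 to 0.213. Abce1 encodes the factor that splits ribosomes after termination. It had levels of 3.42, 3.64 and 3.72 in MR 4-25 and 3.78, 3.77 and 3.62 in Neo, a difference of -0.13 ± 0.16 (SE, 95% confidence interval -0.53 to 0.27). Abcf1, which binds translation initiation factor eIF2, had levels of 4.10, 4.35 and 4.23 in MR 4-25 and 4.52, 4.76 and 4.14 in Neo, a difference of -0.24 ± 0.21 (SE). The second Abce1 probe differed by -0.54 ± 0.28 (SE). The second Abcf1 probe differed by -0.51 ± 0.17 (SE), without overlap between the lines, at an unadjusted p of 0.0263 and an adjusted p of 0.269.
Abcf2 had 2.64, 2.91 and 2.89 in MR 4-25 and 3.22, 3.04 and 3.34 in Neo, without overlap, and differed by -0.39 ± 0.17 (SE, adjusted p 0.414). Abcf3 differed by 0.13 ± 0.19 (SE) at its standing probe. Its other probe differed by -0.45 ± 0.14 (SE), without overlap, at an unadjusted p of 0.0248 and an adjusted p of 0.262. None of the 4 genes passed the test at any probe, and none of their standing probes had an unadjusted p under 0.05.

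Of 37 probes for the 20 genes of subfamilies B and C, 29 passed the filter and 1, the Abcb9 probe, passed the test over all 30975 probes, at an adjusted p of 0.0107, where 1.29% of all probes passed (0.694% higher and 0.600% lower). The 8 that did not pass the filter were the Abcb5 probe and further probes of members, among them Abcb4, Abcb8, Abcc8, Abcc9 and Abcc12. Across the family, 20 genes had more than 1 probe past the filter, and in 13 of them all probes differed in 1 direction while in 7 the direction depended on the probe. The gap between the lowest and highest difference within a gene had a median of 0.38, and in 13 of 20 genes it was under 0.5. The 3 Abcc1 probes spanned 0.15 and the 2 Abcc3 probes 1.88. Probes of different members shared at most 11 bases in a row of 60; their match to transcripts of other members was not tested.

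**Figure D3:**
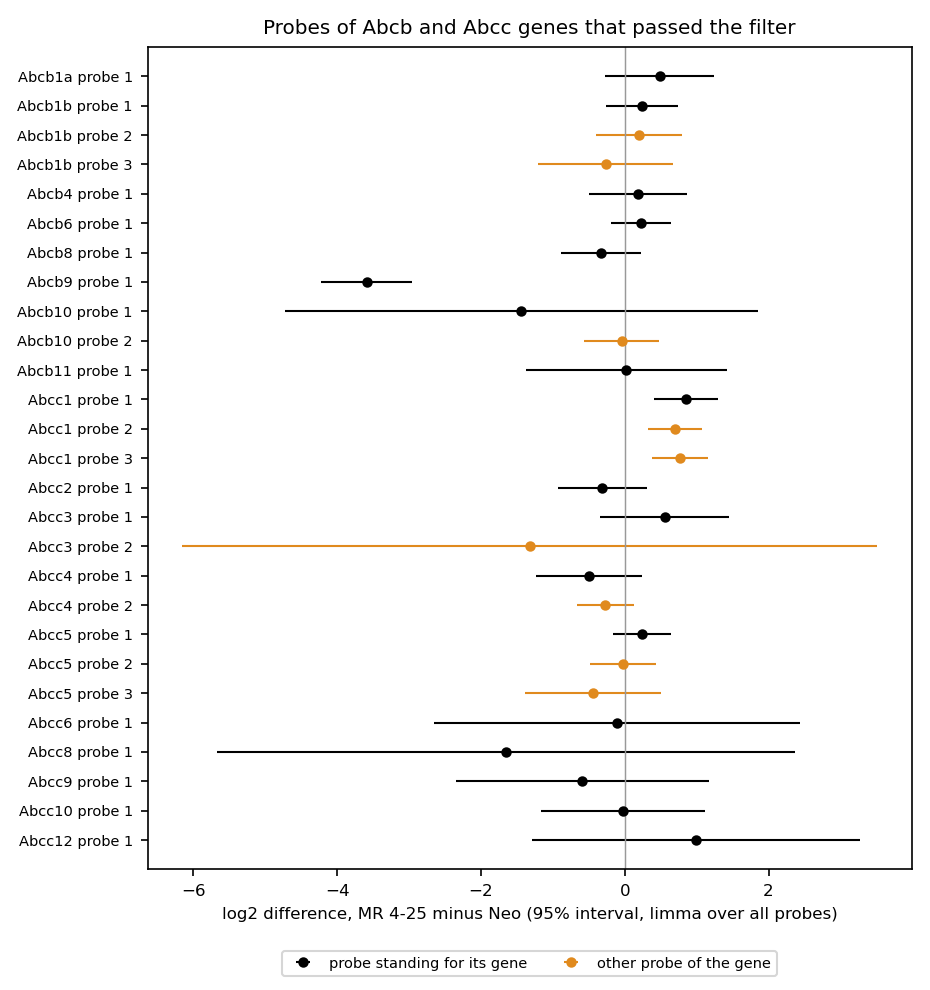
The log2 difference, MR 4-25 minus Neo, of 27 of the 29 Abcb and Abcc probes that passed the filter, with its 95% confidence interval, black for the probe that stands for its gene and orange for the others. The 3 Abcc1 probes lie between 0.70 and 0.85, and the 2 Abcc3 probes lie at 0.55 and -1.32.

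Many members lie next to each other, with 23 of the 49 in 9 groups of probes less than 1 megabase apart on build mm7. On chromosome 5, Abcb1a (chr5:8785623-8785682), Abcb1b (chr5:8865089-8903628) and Abcb4 (chr5:8978600-8996811) differed by 0.48, 0.24 and 0.19, all positive and none past the test. On chromosome 11, from position 110044772 to 110435045, Abca8b, Abca8a, Abca9, Abca6 and Abca5 differed by 0.21, 1.90, -0.52, -1.64 and 0.38. The direction thus varied within the chromosome 11 group. Abcb9 lies on chromosome 5 as well but in none of these groups.

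The dim array, MR 4-25 replicate 3, lies on slide 2. On MR 4-25 replicate 3, 10 of the 45 members (Abca1, Abca6, Abca9, Abca13, Abca16, Abcb10, Abcc6, Abcc9, Abcg1 and Abcg3) shared the lowest signal of any member there, 4.15 intensity units, a level of -6.97. Levels at this value have no order. All 10 had negative differences over the 6 arrays, while 6 of them were negative within slide 1 and 9 within slide 2. They were picked by their low value on that array, which enters the difference over 6 arrays and that within slide 2. Those signs are therefore not independent of the choice. The difference had opposite signs on the slides in 14 of 45 members, and its median over the members was 0.03 within each slide, against -0.02 and 0.09 over all genes within slides 1 and 2. What part the dim array plays in the negative differences of these 10 was not tested.

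**Figure D4:**
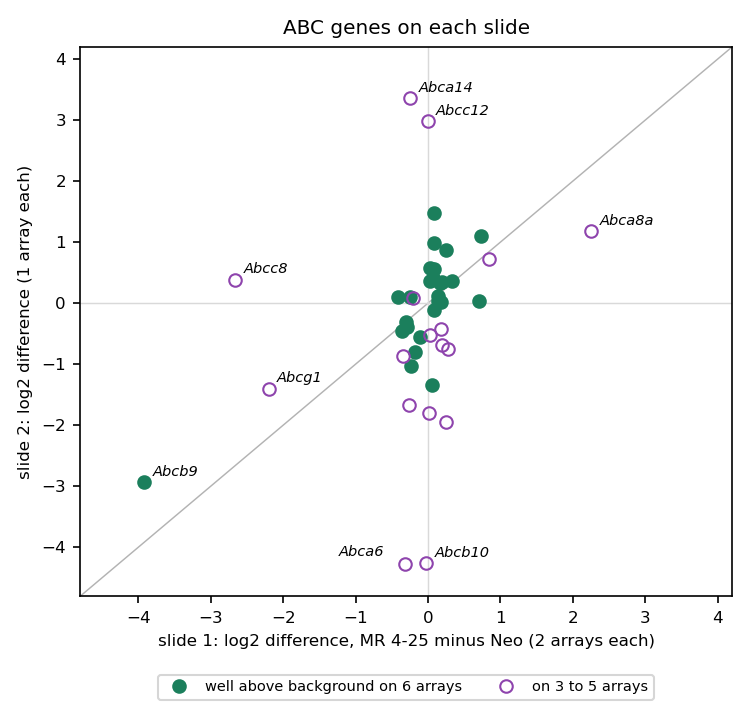
For 43 of the 45 ABC genes, the log2 difference, MR 4-25 minus Neo, within slide 2 (1 array per line) against that within slide 1 (2 arrays per line), filled where the probe was well above background on all 6 arrays and open where on 3 to 5; the diagonal marks equal differences. Abcb9 lies at -3.92 on slide 1 and -2.94 on slide 2, and Abcc1 at 0.73 and 1.10.

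Genes that work beside the transporters were read from lists of partners. Of 15 glutathione and conjugation genes, some of which make substrates that MRP1 exports, 14 were measured. By limma 1 of the 14 was called higher and none lower, where 1.23% of all genes were called. Their median difference was 0.32, and 6 had an unadjusted p under 0.05, in both directions, against 13.2% of all genes. Slc7a11, the cystine importer that feeds glutathione synthesis, had levels of 0.40, -0.12 and 0.24 in MR 4-25 and -1.29, -1.86 and -1.49 in Neo. Every MR 4-25 array was above every Neo array. Slc7a11 rose by 1.72 on the log2 scale (SE 0.24), 3.30-fold, with an adjusted p of 0.0491 by limma, and 0.108 with the replicate number as a block. It passed in 6 of 19 alternatives and lost its call when any 1 of the 6 arrays was left out, at adjusted p of 0.111 to 0.208 with differences of 1.56 to 1.87. Gstt2, a glutathione transferase gene, had the largest negative difference, -0.44 ± 0.15 (SE), and did not pass.

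In the partner lists below no gene passed the test. Over all genes 1.23% passed, and 13.2% had an unadjusted p under 0.05 by limma. Of 14 sterol sensing and efflux genes, 1 had an unadjusted p under 0.05, and the median difference was 0.05. The highest was Nr1h3, a sterol-sensing receptor gene that regulates Abca1 and Abcg1, at 0.62 ± 0.87 (SE). Its lines overlapped, and the slide 2 array was the highest in each. The lowest was the lipoprotein gene Apoe, at -0.26 ± 0.15 (SE). Of 13 peroxisome genes 3 had an unadjusted p under 0.05, the median was 0.01, and Pex14 stood at -0.39. For 16 genes of mitochondrial iron-sulfur and heme synthesis, 2 had an unadjusted p under 0.05 and the median was 0.01, with Gfer at 0.59 and Fech, which inserts iron into heme, at -0.46.
The 12 ribosome recycling and translation genes had a median of -0.24 and 1 gene at an unadjusted p under 0.05, with the release factor gene Etf1 at -0.57 and Pelo, which acts beside Abce1, at 0.34. The channel genes Kcnj11 and Kcnj8, partners of Abcc8 and Abcc9, differed by 1.55 ± 0.93 and 1.11 ± 0.82 (SE), neither at an unadjusted p under 0.05. Of 9 transcriptional regulators of multidrug transporters, 1 had an unadjusted p under 0.05 and the median was 0.33. Arnt stood at 0.58 (adjusted p 0.224 by limma) and Foxo3 at -1.28 ± 0.87 (SE, adjusted p 0.633). The Foxo3 difference was -0.32 within slide 1 and -3.19 within slide 2, and its lowest array was the dim MR 4-25 replicate 3.

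The 4 members that did not pass the filter were Abca4, Abca15, Abca17 and Abcb5. The probes of Abca4, Abca15 and Abcb5 were not well above background on any array. The Abca17 probe was well above background on 2 of 3 MR 4-25 arrays and on no Neo array. Its log2 levels were -5.47, -5.60 and -6.97 in MR 4-25 and -6.12, -6.30 and -7.90 in Neo, with means of -6.01 and -6.78, and the lines overlapped; the last MR 4-25 value is the lowest signal shared by dim members on that array. No fold is given, and the difference was not tested.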

How the data were processed

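Total RNA of 6 samples, 3 of MR 4-25 and 3 of S49 Neo, was measured on 1 Agilent 1-colour array each. The authors deposited scanner output, whose intensity values are background-corrected Cy3 processed signals from Agilent Feature Extraction, version 9.5.3.1 as stated per the file headers (9.5 in the submitters' processing notes). The deposited value table holds the same intensity values, and all 45018 spots agree exactly.

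Control spots (1639 of each array, beside 43379 gene spots) and spots flagged as outliers were left out, log2 signals of a probe were averaged, and each array's 75th percentile (as log2) was subtracted. That scaling sets each array to its own brightness and does not remove a loss of dim signals. Probes dropped because all their spots were masked on an array numbered 34. Of the rest, 30975 were above background (the scanner software's own flag) on 3 or more of 6 arrays and were kept, and the brightest stood for each of 21353 genes. Names came from the RefSeq table (assembly GRCm38.p6) by accession for 22951 probes and by synonym for 3098; 6659 kept a current symbol and 8466 another name from the file. Members were found by the array's own gene names.

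Lines were compared with limma (lmFit and eBayes, version 3.58.1 in R 4.3.3), two-sided, with Benjamini-Hochberg adjustment over all genes, or over all 30975 probes for the test by probe, and a threshold of 0.05. The test was also run on simulated data with independent noise on each array, without a slide effect or a dim array. That run therefore does not speak to those features of the data. Tables were handled with data.table (1.17.8), jsonlite 2.0.0 and pandas 2.3.3 in Python 3.11.15, and figures drawn with matplotlib 3.10.9. Probe positions are those of the array annotation on build mm7; exon and UTR annotation of probes was not used here. Promoter windows are from RefSeq, and 37 of the 49 member genes matched one. The number of arrays limits the precision, and no probe of a member was saturated.

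The members, roles, partner lists and marker lists were chosen with earlier results of these data known. Named with values in every sample are members past the test, in each subfamily the brightest member and that with the largest difference, and the kept Abcb and Abcc probes. Of partner lists, genes past the test are given with values in every sample, and the genes with the largest difference in each direction with that difference. Some genes that the rule takes are not given or drawn here. Other members given with values in the text were chosen after their values were seen.

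Same-numbered arrays of the lines deviated together from their line means across genes, with correlations of 0.291, 0.214 and 0.557, all above 0.1, so the replicate number was taken as a pairing and the blocked fit is given where it changes a call. Differently numbered arrays of slide 1 correlated at 0.380 and 0.413, above the same-numbered arrays of that slide at 0.291 and 0.214. Within slide 1 the check thus shows no closer tie between arrays of 1 number, and slide is the grouping it shows. Replicate 3 is the only number on slide 2, so there number and slide are the same. Alternatives were normexp background correction (offset 50), quantile normalization, both together, scaling to the median, testing all probes or only those detected on all 6 arrays, averaging a gene's probes, the value table, an intensity trend with robust fit, weighted arrays, a block for slide or for replicate number, the arrays of slide 1 on their own, and dropping each array in turn.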

Additional observations from a re-analysis of the deposited data

How the results depend on the processing

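With the replicate number as a block, the pairing left 1 gene called over the whole array in place of 263, and 0 ABC members and 0 Abcb and Abcc probes; it ended the calls of Abcb9, Tap1, Slc7a11 and, at an adjusted p of 0.114, Blnk, which are all the genes called by name. Over all genes, 77 were called with normexp, 508 with normexp and quantile, 523 with the filter on all 6 arrays, 718 with an intensity trend and robust fit, 2013 with array quality weights and 124 on slide 1 alone, and 0 to 223 with 1 array left out (0 without Neo replicate 1 or Neo replicate 2, 6 without MR 4-25 replicate 2, 9 without MR 4-25 replicate 1, 36 without Neo replicate 3 and 223 without MR 4-25 replicate 3). At an unadjusted p under 0.05 limma gave 1687 genes without Neo replicate 1, 2014 without Neo replicate 2 and 2814 with the block, where 3 members were below that level. With slide as a block 338 genes were called over the whole array, and 1 ABC member, Abcb9. Members called higher numbered 1 with the trend and 1 with the weights, which was Abcc1. Members called lower numbered 2 with the weights, Abcb9 and Abcg1, and 0 to 1 with 1 array left out. Abcb and Abcc probes called numbered 2 with normexp and quantile, 2 with the filter on all 6 arrays, 4 with the trend, 4 with the weights, and 0 to 1 with 1 array left out. The median difference of the members was 0.46 with normexp, where that of all genes was 0.34, and 0.12 with the filter on all 6 arrays, and it ran from -0.32 to 0.15 with 1 array left out. Abcb9 was called in 14 of 19 alternatives, with differences of -3.95 to -3.40 and adjusted p of 0.000555 to 0.108, Tap1 in 8 of 19 and Slc7a11 in 6 of 19. Among these alternatives the value table holds the same intensities, so it could not change a call. Averaging probes could not change the difference of Abcb9, which has 1 probe.

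Signs turned for members that had not passed the test, and the cause was not tested. With normexp the difference was -0.070 for Abca7, 0.37 for Abcb10, 0.88 for Abcc10, 0.90 for Abcc6, 0.81 for Abcc9, 0.55 for Abcg1 and 0.47 for Abcg4. Quantile normalization gave 0.19 for Abcc10, and normexp with quantile 0.012 for Abcc10 and 0.020 for Abcc6. Array quality weights gave -0.073 for Abca7, -0.025 for Abcb1b and -0.18 for Abcb4. The mean over probes gave -0.38 for Abcc3 and -0.074 for Abcc5. Slide 1 alone gave 0.18 for Abcc10, -0.0043 for Abcc12 and 0.0099 for Abcc9. With 1 array left out, the difference ran from -2.23 to 0.070 for Abcb10 (highest without MR 4-25 replicate 3), from -0.39 to 0.50 for Abcb11, from -0.39 to 0.39 for Abcc10, from -0.036 to 1.52 for Abcc12 (lowest without Neo replicate 3), from -0.95 to 0.63 for Abcc6, from -2.72 to 0.14 for Abcc8 (highest without MR 4-25 replicate 2), from -0.995 to 0.19 for Abcc9 and from -0.77 to 0.20 for Abcg4 (both highest without MR 4-25 replicate 3). Dim signals limit part of the family, since 17 of 45 members were well above background on 3 to 5 arrays only, with a median standard error of 0.705, against 0.207 for the 28 members above it on all 6.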
